A study of Mus musculus with 16 samples.

Results

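The sarcomere is built from thick myosin filaments, thin actin filaments that carry the calcium switch of troponin and tropomyosin, the giant proteins titin and nebulin, and the Z-disc and M-band that hold the filaments in register. The 45 genes described here encode these proteins without the myosin heavy chains. Each gene was taken by its symbol from the 26382 genes of the table, by a list that sets no threshold on measured values but was drawn up with earlier results of these data known, and all 45 passed the filter on low values. They were grouped as 11 fast-type (adult) genes, 10 slow-type genes, 6 developmental or cardiac genes and the 18 remaining genes, termed scaffold genes. The scaffold class is not limited to genes that fibre types share, and holds for example *Myom3*, a form of intermediate fibres. *Acta1*, the adult skeletal actin, was listed with the fast-type genes although it is not restricted to fast fibres.

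Adult fibres of the mouse hindlimb are mostly fast, and fast and slow fibres use separate genes for troponin, myosin light chains, myosin-binding protein C and calsarcin. Embryonic and regenerating fibres transiently use isoforms that adult muscle keeps for the heart, such as cardiac troponin T (*Tnnt2*), cardiac actin (*Actc1*) and the atrial light chain (*Myl4*). Stretch and damage also induce genes that encode ankyrin repeat proteins bound to titin, of which *Ankrd1* is known best.

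Muscle RNA was sequenced in bulk as 16 libraries of 9 female C57BL/6 mice aged 8 to 10 weeks, all taken 14 days after intramuscular injection into the hamstrings. In 5 mice (m862 to m866) the titles gave an agent written as ma to the left leg and phosphate-buffered saline (PBS) to the right leg. The treatment label of the left legs names histidyl-tRNA synthetase (HRS) at 3 to 5 mg/mL, in recombinant form the immunogen of this myositis model. The agent ma was therefore read as HRS, and the legs are termed here HRS leg and contralateral PBS leg. Another 2 mice received PBS alone and gave 4 legs (PBS-only mice m867 and m868), and 2 mice (m860 and m861) gave 1 library each from animals whose titles name an MBP fusion of the immunogen at 2 to 3 mg/mL while their treatment label names HRS at 3 to 5 mg/mL (HRS-MBP mice, with no leg stated). The protocol in the labels describes bilateral injection of 50 µL per side, whereas the titles name 1 agent per leg, and the titles were followed for the grouping. Values below are the deposited normalized counts, given in the order of mice m862, m863, m864, m865 and m866 for both legs, and for PBS-only mice in the order m867 left, m867 right, m868 left and m868 right.

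Totals of the libraries ran from 726797 to 1252360 normalized counts, and the implied depth from 8595360 reads in the right leg of m868 to 73939154 in the HRS leg of m863. The 45 genes took 6.24 to 13.7% of the total in HRS legs, 12.4 to 15.3% in contralateral PBS legs, 13.6 to 14.0% in PBS-only legs and 8.45 to 8.57% in HRS-MBP libraries. The 15 non-sarcomeric myofibre markers were all detected and summed to 12255 to 55800 in HRS legs and to 41815 to 67250 in contralateral legs, as skeletal muscle would give. Of the heart markers, *Nppa* was at most 0.323 in any library. *Tnni3* (cardiac troponin I) reached 17.97 in the PBS leg of m864 and 14.3 in the right leg of m868 and was at most 9.67 elsewhere. In these same legs *Mybpc3* measured 2.31 and 1.94 and *Myl7* 1.11 and 0.607, the highest values of each. All 8 leukocyte markers passed the test upward in HRS legs (summed level 979 to 4887 against 73.4 to 223 in contralateral legs), as did all 6 fibroblast markers (2414 to 24239 against 1090 to 2606) and all 5 markers of regenerating fibres (34.7 to 1557 against 41.0 to 206), whereas 14 of 15 myofibre markers passed downward. In bulk RNA, fewer fibres and less RNA per fibre cannot be told apart, and the part of these other cells in the results below was not tested.

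The HRS leg of m866 stood apart from the other 4. Its leukocyte markers summed to 979, against 179.5 in its PBS leg and 2116 to 4887 in the other HRS legs, and were thus above every PBS leg. Its fibroblast markers (2414), regenerating-fibre markers (34.7) and myofibre markers (55800) lay outside the ranges of the other 4 HRS legs. The first and last of these sums lay within the range of contralateral legs, and the regenerating-fibre sum lay below it. The median member differed by 0.41 (log2) between the legs of m866 and by -0.77, -1.12, -1.98 and -1.25 between those of m862 to m865. Results are therefore given for all 5 mice and without both legs of m866, an alternative chosen after these values were seen.

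The comparison of HRS legs with contralateral PBS legs asks how the sarcomere transcripts of an immunogen-injected muscle differ from those of the other leg of the same animals. On the deposited scale most adult sarcomere genes fell in HRS legs, of both the fast and the slow type, although their fall was shared by myofibre genes of other functions (the members' median was 0.09 when libraries were centred on those), while 3 developmental or cardiac genes, *Tnnt2*, *Myl4* and *Ankrd1*, rose by 3.08 to 3.39 on the log2 scale. By limma, 28 of the 45 members fell (adjusted p under 0.05), 21 of them past 2-fold, 3 rose past 2-fold and 14 did not pass. Of all 16414 genes tested, 25.9% were called lower and 35.1% higher, and 6.27% were called lower and 16.9% higher past 2-fold. The median log2 fold change was -1.0 over the members and 0.08 over all genes.

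By class, 9 of 11 fast-type genes, 7 of 10 slow-type genes and 12 of 18 scaffold genes fell, whereas none of the 6 developmental or cardiac genes did, though *Mybph* passed downward without m866. The median log2 fold change was -1.11 in the fast-type class, -1.25 in the slow-type class and -0.94 in the scaffold class. All 28 genes that fell were lower in the HRS leg of each of m862 to m865, and 26 of them were higher in the HRS leg of m866, by at most 0.74. Without both legs of m866, 36 members fell and 3 rose, where 31.3% of all genes were called lower and 38.9% higher. With the mouse as a fixed replicate block in the paired legs, 9 members fell (*Mylk2*, *Myl2*, *Myl3*, *Ankrd2*, *Mybpc1*, *Tcap*, *Myot*, *Tmod1* and *Myoz3*) and the same 3 rose, where 16.2% of all genes were called lower and 27.8% higher. By class, 1 of 11 fast-type, 4 of 10 slow-type and 4 of 18 scaffold genes fell in that fit.

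**Figure D1:**
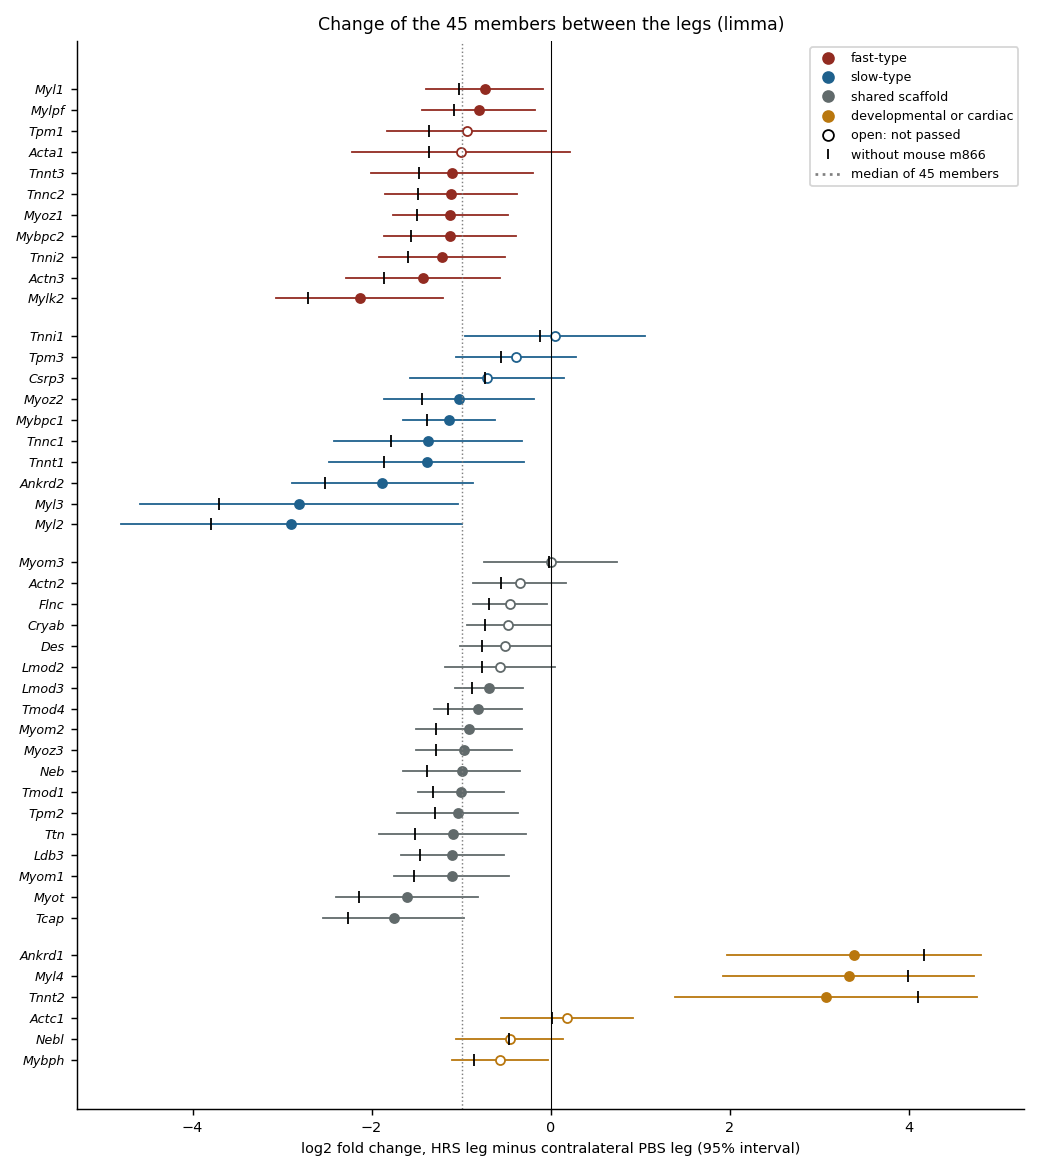
Log2 fold change between HRS legs and contralateral PBS legs on the deposited scale for the 45 members by class, with 95% intervals from limma (filled points passed at an adjusted p of 0.05) and a tick for the value without mouse m866. Filled points of the fast-type, slow-type and scaffold classes all lie left of 0, and *Tnnt2*, *Myl4* and *Ankrd1* lie between 3.08 and 3.39.

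Sequence is shown for the promoters of the 3 genes that rose and, for contrast, of *Myl3*, one of the 2 genes with the largest fall. These are the 250 bases before the start of each gene in RefSeq (GRCm38.p6), written 5′ to 3′ on the gene's strand. Capitals mark M-CAT motifs (CATTCC on either strand, the element bound by TEAD factors) and CArG boxes (the element bound by serum response factor), which did not overlap in these windows. The windows are chr1:135836084-135836333 (plus strand), chr11:104550413-104550662 (plus strand), chr19:36119845-36120094 (minus strand) and chr9:110763428-110763677 (plus strand). Those of *Ankrd1* and *Myl3* lie inside the longer gene models of the table, whose starts differ from those of RefSeq.
Tnnt2: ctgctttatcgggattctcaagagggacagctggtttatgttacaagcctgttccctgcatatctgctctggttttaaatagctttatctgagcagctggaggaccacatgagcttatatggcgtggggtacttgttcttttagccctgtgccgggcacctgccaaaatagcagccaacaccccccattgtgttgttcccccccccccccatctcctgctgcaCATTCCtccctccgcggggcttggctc
Myl4: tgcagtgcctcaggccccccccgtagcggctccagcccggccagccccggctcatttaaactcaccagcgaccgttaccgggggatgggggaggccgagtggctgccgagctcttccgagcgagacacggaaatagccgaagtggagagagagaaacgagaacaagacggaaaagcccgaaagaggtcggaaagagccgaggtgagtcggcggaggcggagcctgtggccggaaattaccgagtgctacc
Ankrd1: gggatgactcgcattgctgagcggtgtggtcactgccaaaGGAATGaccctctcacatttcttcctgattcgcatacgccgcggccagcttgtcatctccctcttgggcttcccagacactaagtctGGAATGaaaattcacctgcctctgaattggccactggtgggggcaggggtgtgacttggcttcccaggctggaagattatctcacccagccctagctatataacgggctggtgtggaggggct
Myl3: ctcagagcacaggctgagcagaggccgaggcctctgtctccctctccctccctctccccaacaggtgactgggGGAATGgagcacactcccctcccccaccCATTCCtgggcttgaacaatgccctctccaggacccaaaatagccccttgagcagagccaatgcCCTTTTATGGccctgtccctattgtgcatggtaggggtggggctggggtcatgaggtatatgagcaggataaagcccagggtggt

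*Ankrd1* held 2 M-CAT motifs, 210 and 123 bases before its start, *Tnnt2* held 1 at 27 bases, and *Myl3* held 2, at 177 and 149 bases, besides a CArG box at 85 bases. Neither motif occurred in this window of *Myl4*, nor in that of *Myl2* (sequence not shown), the gene with the largest fall. Among the 33 members matched to a window in the RefSeq set used, 11 (33.3%) held M-CAT, against 12.6% of 32851 promoter windows of the same length. The CArG box occurred in 5 of the 33 members (15.2%, *Acta1*, *Actc1*, *Ldb3*, *Myl3* and *Myom1*) and in 1.47% of all windows. The E-box (CANNTG on either strand, bound by myogenic factors) occurred in 28 members (84.8%) and in 66.2% of all windows, and the MEF2 box in 3 members (9.09%, *Ttn*, *Myoz2* and *Myom3*) and 2.92% of all windows. M-CAT and the E-box occurred both in genes that rose and in genes that fell. None of the 3 genes that rose held a CArG or MEF2 box in this window, and *Myl4* held none of the 4 motifs. Most of the 33 members lacked both boxes, so their absence does not set the 3 genes apart. A match is a description and not a bound site.

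Troponin is the calcium switch of the thin filament, and 5 of its 7 genes fell, 1 rose and 1 did not pass. *Tnnt2*, cardiac troponin T, lies at chr1:135836354-135852260 (GRCm38). Its level was 92.8, 67.6, 39.5, 140.2 and 2.06 in HRS legs against 2.53, 3.16, 5.17, 6.00 and 4.74 in contralateral legs. The HRS legs of m862 to m865 stood above every PBS leg of the series, while the HRS leg of m866 was the lowest of all 16 libraries. The rise was 3.08 ± 0.79 (log2, SE, limma adjusted p = 0.0041), and 4.10 without m866. Per kilobase of annotated exon, the mean level of *Tnnt2* in HRS legs (8.82) was still far below that of the fast skeletal form *Tnnt3* in the same legs (5528).

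*Tnnt3*, fast troponin T, measured 10603, 6696, 3859, 6522 and 16074 in HRS legs and 19298, 18008, 17065, 17946 and 12230.3 in contralateral legs (-1.10 ± 0.42, limma adjusted p = 0.035). *Tnni2*, fast troponin I, measured 4002, 2648, 1715, 2606 and 6436 against 8944, 7393, 7133, 8294 and 5257 (-1.22, adjusted p = 0.0057). *Tnnc2*, fast troponin C, measured 5089, 3526, 2056, 3254 and 7947 against 10253, 8902, 8133, 9782 and 6261 (-1.11, adjusted p = 0.012). In all 3 fast subunits the HRS legs of m862 to m865 were lower than their own PBS legs, m864 was lowest, and the m866 HRS leg was above its PBS leg, so that the groups overlapped.

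The slow subunits were far less abundant and varied more. *Tnnt1*, slow troponin T, measured 41.8, 82.8, 16.5, 63.2 and 119 in HRS legs and 52.2, 177, 354, 198 and 83.7 in contralateral legs (-1.38 ± 0.51, adjusted p = 0.029). *Tnnc1*, the troponin C of slow and cardiac muscle, gave 39.5, 73.7, 18.5, 68.0 and 105 against 45.7, 159, 355, 207 and 84.7 (-1.37 ± 0.49, adjusted p = 0.026). The PBS legs themselves spanned a wide range, with m864 highest and m862 lowest, and the groups overlapped for both genes. *Tnni1*, slow troponin I, did not follow them: it measured 92.4, 99.2, 41.0, 146 and 73.6 against 27.0, 107, 201, 132 and 43.7, higher in the HRS leg of m862, m865 and m866 and lower in m863 and m864. Its log2 fold change was 0.05 (95% interval -0.95 to 1.06), and the test was not passed with or without m866.

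Actin and tropomyosin form the body of the thin filament, and of their 5 genes only *Tpm2* passed the test. *Acta1*, the most abundant member per kilobase (25330.1 ± 3734, SD, n = 5 contralateral legs), measured 22652, 16732, 10672, 16799 and 38511 in HRS legs and 42839, 39600.5, 42214, 40993 and 28888 in contralateral legs. Its HRS legs were lower in m862 to m865 and higher in m866, and the change of -1.0 (95% interval -2.22 to 0.21) did not pass (adjusted p = 0.14), but without m866 it was -1.36 (adjusted p = 0.0077). *Actc1*, cardiac actin and the actin of immature fibres, measured 2311, 2098, 1214, 1643 and 2102 against 1154, 3073, 2118, 1240.1 and 1159, with no common direction over the mice (0.18, interval -0.55 to 0.92). *Tpm2*, the beta-tropomyosin, was lower in the HRS leg of 5 of 5 mice and fell by 1.04 ± 0.32 (adjusted p = 0.011), though in m866 the legs were almost equal (6409 and 6499). *Tpm1* (adjusted p = 0.062) and *Tpm3* (adjusted p = 0.3) had log2 changes of -0.94 and -0.38, and *Tpm1* passed without m866 (-1.36).

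Nebulin, tropomodulins and leiomodins set and cap the length of the thin filament, and 4 of 6 such genes fell. *Tmod1* (-1.0), *Neb* (-1.0), *Tmod4* (-0.81) and *Lmod3* (-0.69) passed, with adjusted p between 0.002 and 0.011. *Lmod2* had a log2 change of -0.56 (adjusted p = 0.1) and passed without m866 (-0.77, adjusted p = 0.031). *Nebl*, the cardiac relative of nebulin, stayed between 0.353 and 2.68 over both legs and did not pass (-0.46), at levels where the added 0.5 shrinks a fold change.

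Myosin light chains sit on the lever arm of the heavy chain, and 5 of the 6 genes for light chains and their kinase fell while 1 rose. *Myl4*, the atrial and embryonic essential light chain (chr11:104550663-104595753), measured 202, 188, 98.1, 257 and 15.5 in HRS legs and 5.45, 17.8, 10.3, 12.4 and 9.45 in contralateral legs. Every HRS leg was above its own PBS leg, although the m866 HRS leg lay inside the range of the PBS legs. The rise was 3.33 ± 0.66 (limma adjusted p = 0.00085), and 3.99 without m866.

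The largest falls of any member were those of the slow and ventricular light chains. *Myl2*, the regulatory chain, measured 3.5, 35.5, 2.68, 11.8 and 105 against 38.5, 134, 244, 162 and 64.2, and *Myl3*, the essential chain (chr9:110741861-110769798), measured 10.2, 43.3, 4.32, 29.3 and 182 against 74.9, 222, 409, 279.8 and 109. The 4 HRS legs of m862 to m865 lay below every PBS leg for both genes, with m862 and m864 lowest, and the m866 HRS leg lay among the PBS legs. The changes were -2.90 ± 0.90 for *Myl2* (adjusted p = 0.012) and -2.81 ± 0.84 for *Myl3* (adjusted p = 0.0093), and -3.80 and -3.70 without m866.

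The fast light chains changed less. *Myl1*, the fast essential chain, measured 5903, 4050.2, 2731, 3902 and 7404 against 8483, 8509, 7829, 7706 and 5565 (-0.74, adjusted p = 0.049). *Mylpf*, the fast regulatory chain, measured 5147, 3698, 2336, 3338 and 6254 against 8497, 7367, 6608, 7159.5 and 5104 (-0.80, adjusted p = 0.029). For both, m866 was the only mouse with a higher HRS leg, and the direction of both flipped when libraries were quantile normalized (0.27 and 0.13) or centred on myofibre genes (0.35 and 0.28). *Mylk2*, the skeletal kinase that phosphorylates the regulatory chain, had the largest fall of the fast-type class, with 263, 190.1, 78.5, 254 and 918 in HRS legs and 1554, 932, 975, 1296 and 822 in contralateral legs. Its HRS legs of m862 to m865 reached at most 263, below the 822 of the lowest PBS leg, and the change was -2.13 ± 0.44 (adjusted p = 0.0011).

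Myosin-binding protein C tunes cross-bridge formation. *Mybpc2*, the fast form, measured 3586, 2442, 1682, 2571 and 6913 against 7944, 7577, 6465, 7391 and 4520.0 (-1.13 ± 0.35, adjusted p = 0.012). *Mybpc1*, the slow form, measured 844, 748, 480.3, 899 and 1210.3 against 1696, 1604, 2213, 2103 and 1330.3, lower in the HRS leg of 5 of 5 mice with groups that did not overlap (-1.13 ± 0.24, adjusted p = 0.0014). It and *Tpm2* were the 2 of 45 members lower in all 5 mice, a direction shared by 8.99% of all genes tested. *Mybph*, myosin-binding protein H, measured 438, 371, 246, 361 and 671 against 619, 860.7, 587, 501 and 443, lower in m862 to m865 and higher in m866, and did not pass (-0.57, adjusted p = 0.063) unless m866 was left out (-0.86, adjusted p = 0.0032).

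Titin and the myomesins of the M-band hold thick filaments in place, and 3 of these 4 genes fell. *Myom1* measured 1000.1, 637, 384, 699 and 1659 against 1947, 1806, 1709, 1959 and 1116, with the 4 HRS legs of m862 to m865 below every PBS leg (-1.11 ± 0.30, adjusted p = 0.0059). *Ttn* (-1.09, adjusted p = 0.023) and *Myom2* (-0.91, adjusted p = 0.011) fell to a like extent. *Myom3*, the form of intermediate fibres, measured 67.0, 54.7, 33.7, 72.7 and 34.4 against 21.2, 75.2, 107, 54.1 and 33.1, with no common direction over the mice, and the interval of its log2 change was -0.74 to 0.74.

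At the Z-disc, 7 of 12 genes fell. *Tcap*, telethonin, which caps titin at the Z-disc, measured 435, 427, 237, 547 and 1601 in HRS legs and 2193, 1682, 1566, 2209 and 1322 in contralateral legs. *Myot*, myotilin, which binds alpha-actinin and filamin, measured 429, 344, 176, 376 and 1360.1 against 1433, 1287, 1536, 1294 and 942. In both, the HRS legs of m862 to m865 lay below every PBS leg by a wide gap and the m866 HRS leg lay among the PBS legs. *Tcap* changed by -1.75 ± 0.37 (limma adjusted p = 0.0013) and *Myot* by -1.60 ± 0.37 (adjusted p = 0.0023), the largest falls among scaffold genes.

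The alpha-actinins cross-link actin at the Z-disc, *Actn3* in fast fibres and *Actn2* in all fibres. *Actn3* measured 5314, 3464, 2042, 4245 and 10429 against 16303, 11625, 10991, 13467 and 8427 (-1.43 ± 0.40, adjusted p = 0.0071). *Actn2* measured 754, 707, 459.9, 639 and 707 against 546, 965, 1308, 1047 and 508 and did not pass (-0.35, interval -0.86 to 0.17) unless m866 was left out (-0.55, adjusted p = 0.045). The HRS legs of m862 to m865 fell below the PBS range for *Actn3* but overlapped with it for *Actn2*.

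The calsarcins (*Myoz1* to *Myoz3*) tie calcineurin to the Z-disc, and all 3 fell. *Myoz1*, the fast form, measured 1088, 725, 391, 739 and 1769.8 against 2408, 1724, 1757, 1989 and 1347 (-1.12, adjusted p = 0.0055), and *Myoz2*, the slow and cardiac form, measured 35.5, 50.4, 17.0, 39.2 and 76.1 against 39.5, 95.2, 152, 117 and 49.0 (-1.02, adjusted p = 0.035). *Myoz2* overlapped widely with the PBS legs, whereas for *Myoz1* the 4 HRS legs of m862 to m865 lay below all of them. *Myoz3* (-0.97) and *Ldb3*, which encodes ZASP (-1.10), also fell. The remaining 4 genes, *Des* (the intermediate filament around Z-discs, -0.51), *Cryab* (the chaperone of desmin, -0.47), *Flnc* (filamin C, -0.46) and *Csrp3* (muscle LIM protein, -0.71), did not pass, with adjusted p between 0.053 and 0.13, and the first 3 passed without m866.

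*Ankrd1* and *Ankrd2* encode ankyrin repeat proteins that bind titin and respond to stretch, and they changed in opposite directions. *Ankrd1* (chr19:36111961-36120099) measured 45.8, 47.7, 55.5, 55.0 and 2.52 in HRS legs and 1.19, 2.80, 3.83, 2.24 and 2.02 in contralateral legs, a narrow range in m862 to m865 and a PBS-like value in m866. *Ankrd2*, preferred by slow fibres, measured 11.5, 22.9, 11.2, 12.2 and 62.7 against 36.7, 104, 132, 88.8 and 38.4, below every PBS leg in m862 to m865. *Ankrd1* rose by 3.39 ± 0.67 (limma adjusted p = 0.00084) and *Ankrd2* changed by -1.88 ± 0.48 (adjusted p = 0.0037). *Ankrd1* and *Myl4* were the 2 members higher in the HRS leg of all 5 mice, as were 26.3% of all genes.

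**Figure D2:**
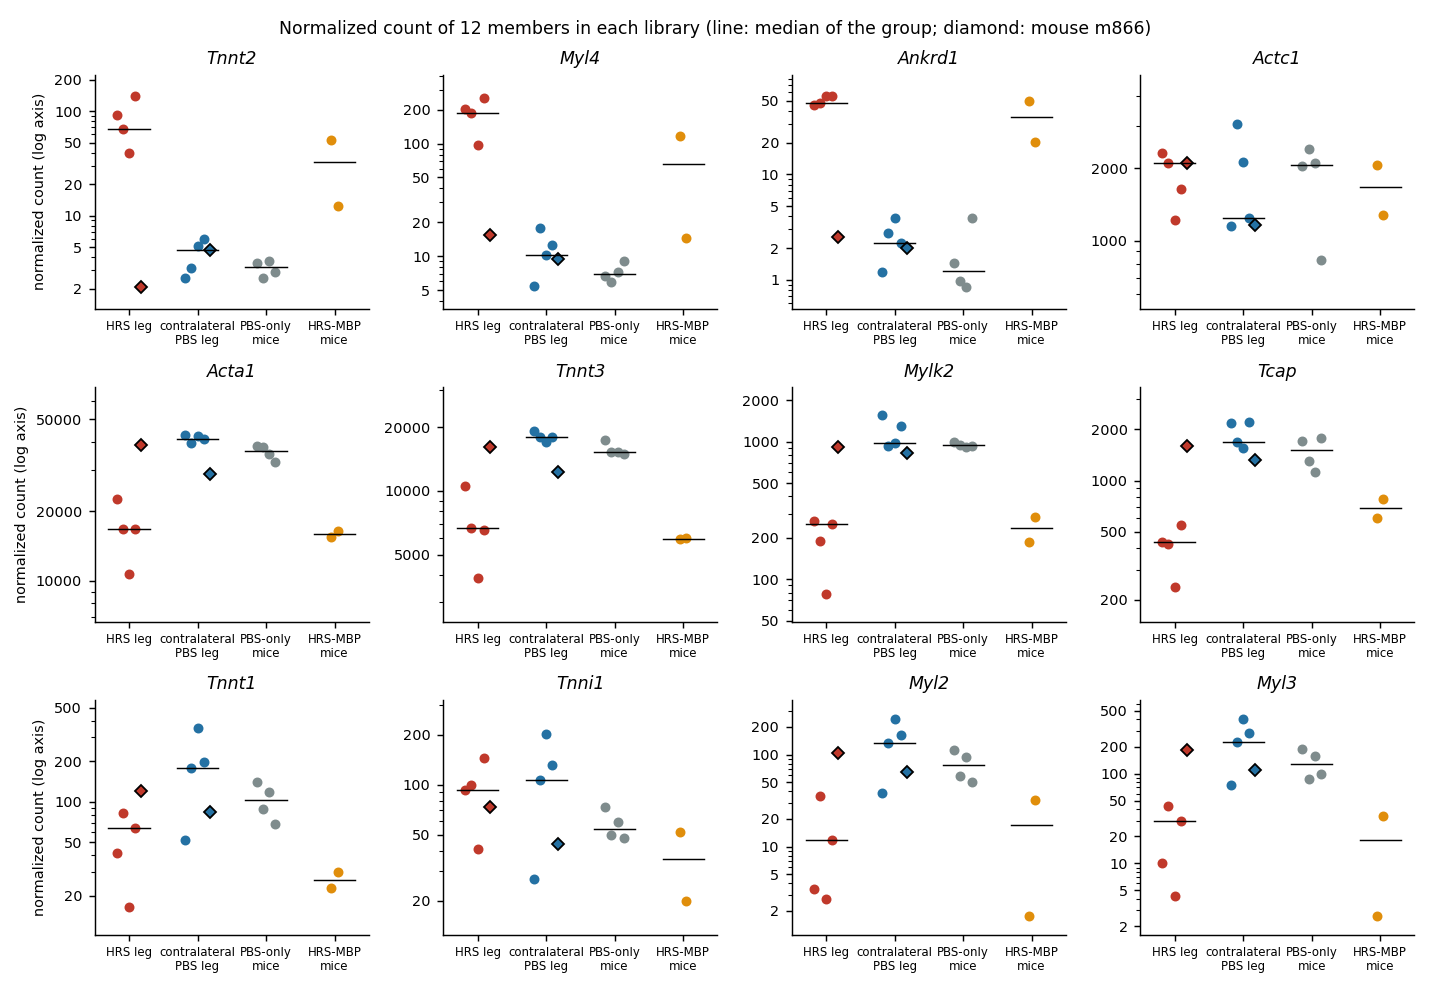
Normalized counts (log axis) of 12 members in each of the 16 libraries by group, with a line at the group median and diamonds for both legs of m866. The 4 HRS legs of m862 to m865 lie above all PBS legs for *Tnnt2*, *Myl4* and *Ankrd1* and below them for *Acta1*, *Tnnt3*, *Mylk2*, *Tcap*, *Myl2* and *Myl3*, while the m866 HRS leg lies within or next to the PBS legs in each panel.

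Without the m866 HRS leg, the 4 other HRS legs lay below all 9 PBS legs (of 7 mice) for 24 members and above all of them for 3, and 20.3% and 31.4% of all genes tested showed these patterns. The 24 were 8 of 11 fast-type, 4 of 10 slow-type, 11 of 18 scaffold genes and 1 of 6 developmental or cardiac genes. With all 5 HRS legs, *Mybpc1* and *Tpm2* were the 2 members whose groups did not overlap with the contralateral legs, both with HRS legs lower, as 3.19% of all genes tested were, a share near that of the members.

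**Figure D3:**
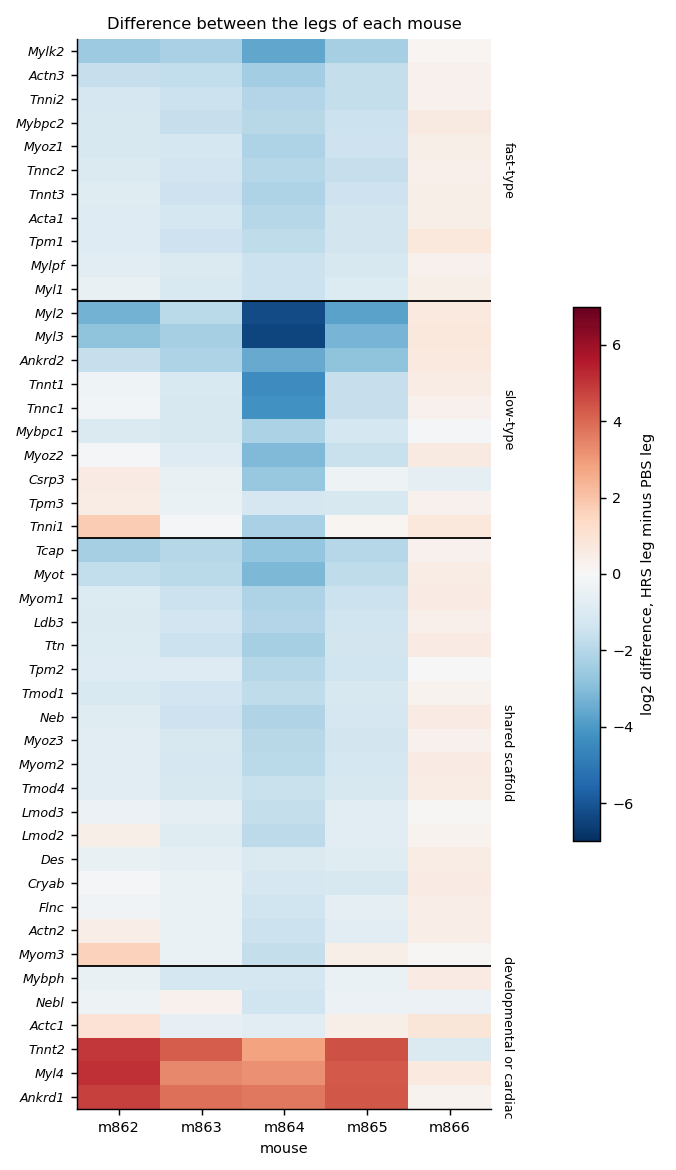
Log2 difference between the HRS leg and the PBS leg of each mouse (columns) for the 45 members (rows, by class), blue for lower and red for higher in the HRS leg. The columns of m862 to m865 are mostly blue with *Tnnt2*, *Myl4* and *Ankrd1* red, and that of m866 is pale, with a median of 0.41.

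Ratios of 2 isoforms within a library do not depend on how libraries were scaled, and they were taken for 11 pairs as values with no test. The order of mice is as above, and the range of the 9 PBS legs follows each. For fast over slow troponin T (*Tnnt3*/*Tnnt1*) the log2 ratio in HRS legs was 7.99, 6.34, 7.87, 6.69 and 7.07, inside the PBS range of 5.59 to 8.53. For troponin C (*Tnnc2*/*Tnnc1*) it was 7.01, 5.58, 6.79, 5.58 and 6.24 in a range of 4.52 to 7.81, and for calsarcin (*Myoz1*/*Myoz2*) 4.94, 3.85, 4.52, 4.24 and 4.54 in a range of 3.53 to 5.93. These 3 pairs thus showed no move to either fibre type beyond the spread of PBS legs.

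The fast to slow ratios of troponin I and of the light chains lay on opposite sides of the PBS range. *Tnni2*/*Tnni1* measured 5.44, 4.74, 5.39, 4.16 and 6.45, below the PBS range (5.15 to 8.37) in m863 and m865 and lower than in the PBS leg of 4 of 5 mice. *Myl1*/*Myl3* measured 9.18, 6.55, 9.30, 7.06 and 5.35 (range 4.26 to 6.82) and *Mylpf*/*Myl2* measured 10.52, 6.70, 9.77, 8.15 and 5.90 (range 4.76 to 7.79), both above the PBS range in m862, m864 and m865. *Mybpc2*/*Mybpc1* measured 2.09, 1.71, 1.81, 1.52 and 2.51 around a range of 1.55 to 2.56, with 1 HRS leg, that of m865, slightly below it.

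Ratios of adult to developmental or shared isoforms fell out of the PBS range in all 4 HRS legs of m862 to m865. *Actn3*/*Actn2* measured 2.82, 2.29, 2.15, 2.73 and 3.88 against 3.07 to 4.90, and *Acta1*/*Actc1* measured 3.29, 3.0, 3.14, 3.35 and 4.20 against 3.69 to 5.30. Both were lower in the HRS leg than in the PBS leg of 5 of 5 mice. *Tnnt3*/*Tnnt2* measured 6.84, 6.63, 6.61, 5.54 and 12.93 against 11.33 to 12.90, and *Myl1*/*Myl4* measured 4.87, 4.43, 4.80, 3.93 and 8.90 against 8.90 to 10.60. In m866 these ratios lay inside the PBS range or at its edge.

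**Figure D4:**
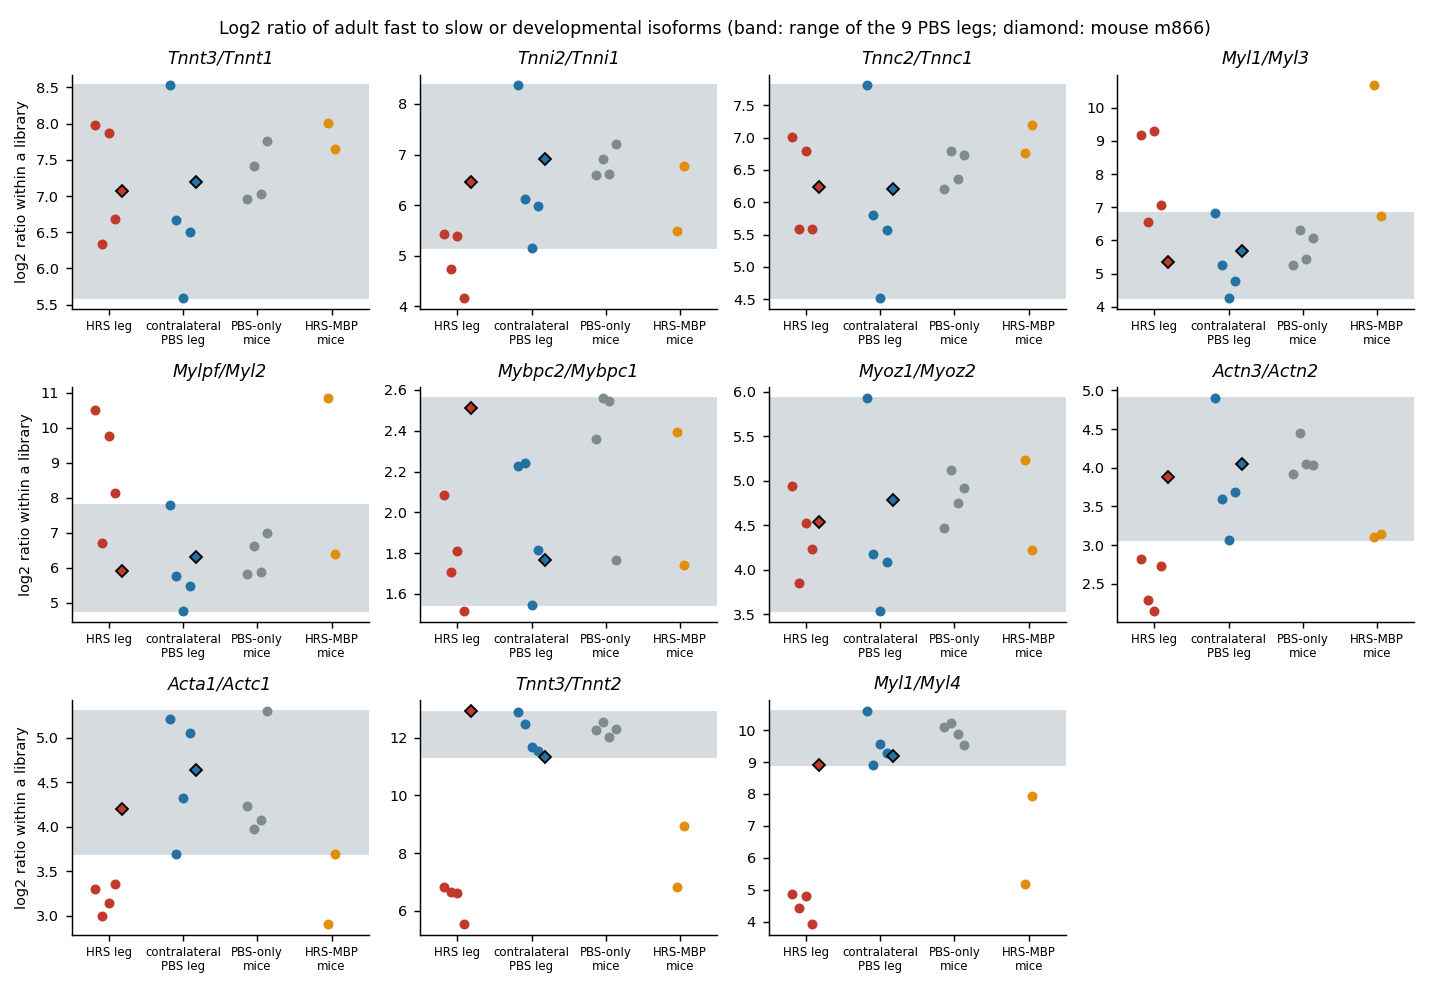
Log2 ratio of 11 isoform pairs in each library, with the range of the 9 PBS legs as a grey band and diamonds for m866. The HRS legs of m862 to m865 lie below the band for *Actn3*/*Actn2*, *Acta1*/*Actc1*, *Tnnt3*/*Tnnt2* and *Myl1*/*Myl4*, 3 of them lie above it for *Myl1*/*Myl3* and *Mylpf*/*Myl2*, and all lie inside it for *Tnnt3*/*Tnnt1*.

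Among PBS legs, the slow-type genes other than *Mybpc1* varied far more than the fast-type genes. The highest of the 9 PBS legs exceeded the lowest by a median of 5.58-fold over the 10 slow-type genes and of 1.70-fold over the 11 fast-type genes. For *Mybpc1* it was 1.77-fold, inside the fast-type range of 1.48 to 1.93. Over these 9 legs, Pearson's r between pairs of slow-type genes on the log2 scale had a median of 0.93 (45 pairs), against 0.82 between fast-type genes (55 pairs) and 0.17 between a fast-type and a slow-type gene (110 pairs). *Mybpc1* correlated less with the other slow-type genes, at 0.52 to 0.75, and in these values did not behave like its class. These correlations describe legs that share animals and scaling. The PBS leg of m862 was lowest and that of m864 highest for *Tnnt1*, *Tnni1*, *Tnnc1*, *Myl2* and *Myl3* alike, and the PBS leg of m864 also had the highest *Tnni3* of the series.

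In HRS legs *Tnni1*, *Myl3* and *Myl2* did not keep the proportion to *Tnnc1* that they had in PBS legs, a pattern noticed after the values were seen and given with no test. The other slow-type genes were not set against *Tnnc1*, apart from *Tnnt1*. *Tnnt1*/*Tnnc1* stayed inside the PBS range (-0.32 to 0.34) in all 5 HRS legs (0.08, 0.17, -0.17, -0.10 and 0.19). *Tnni1*/*Tnnc1* measured 1.23, 0.43, 1.15, 1.10 and -0.51, above the narrow PBS range of -0.96 to -0.51 in m862 to m865. *Myl3*/*Tnnc1* measured -1.96, -0.77, -2.10, -1.21 and 0.79 against 0.20 to 0.71, and *Myl2*/*Tnnc1* measured -3.5, -1.05, -2.79, -2.53 and -0.0026 against -0.76 to -0.003. Slow troponin I was thus high and the slow light chains low for a given level of slow troponin C in these 4 legs, and in m866 the 3 ratios lay at or just past the edge of the PBS range.

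**Figure D5:**
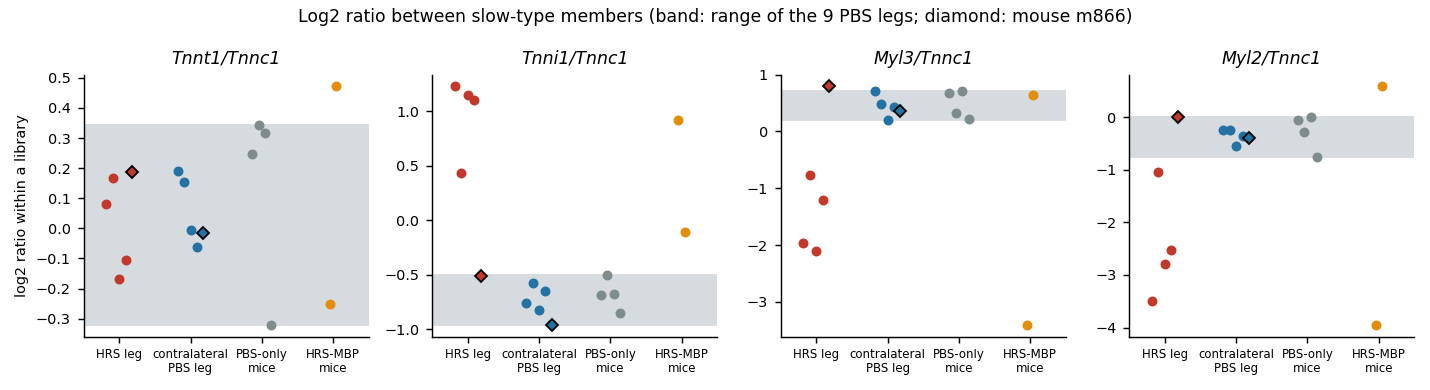
Log2 ratio of 4 slow-type members to *Tnnc1* in each library (*Tnnt1*, *Tnni1*, *Myl3* and *Myl2*), with the range of the 9 PBS legs as a grey band and diamonds for m866. The HRS legs of m862 to m865 stay in the band for *Tnnt1*, lie above it for *Tnni1* and lie below it for *Myl3* and *Myl2*.

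Levels were also set against other fibre genes, by centring each library on 15 myofibre genes that are not sarcomeric. As deposited, these 15 changed by -1.52 (*Ampd1*) to -0.20 (*Cacng1*), so values relative to their mean depend on the genes listed. On the centred scale the median log2 change of the members was 0.09 and that of all genes 1.16, so the median member moved with fibre genes of other functions. In this fit 16 members were called higher and 6 lower, where 81.5% and 1.26% of all genes were called. The 6 were *Mylk2* (-1.05 ± 0.22), *Actn3* (-0.34 ± 0.08), *Tcap* (-0.67 ± 0.19), *Myot* (-0.52 ± 0.16), *Myl2* (-1.81 ± 0.78) and *Myl3* (-1.73 ± 0.69), with limma adjusted p from 0.00097 to 0.04. The 16 held 5 of 6 developmental or cardiac genes, among them *Actc1* (1.27) and *Mybph* (0.52), both of which had not passed on the deposited scale. They also held *Tnni1* (1.14), *Myom3* (1.09), *Actn2* (0.74), *Flnc* (0.63), *Cryab* (0.62) and *Des* (0.58). Genes such as *Tnnt3* (-0.01 ± 0.06) and *Ttn* (-0.01 ± 0.07) changed with the fibre genes to within their error. Centring moved the log2 change of every member by the same 1.09, which turned the sign of 21 of the 45 and left that of the others, such as *Mylk2*, *Myl2*, *Tcap*, *Tnnt2*, *Myl4* and *Ankrd1*, as it was.

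HRS legs were also compared with the legs of PBS-only mice, which never received the immunogen. This comparison shares its HRS legs with the one above, so the values are given side by side and not as a second finding, and the 2 comparisons after it share the PBS-only legs. In it, 21 members fell and 3 rose, where 22.6% and 38.1% of all genes were called, and without m866 31 fell and 3 rose, where 28.4% and 41.5% were called. Centred on myofibre genes, 2 members were called lower and 20 higher, where 1.15% and 82.3% of all genes were. The median log2 change was -0.84 for the members and 0.15 for all genes. *Tnnt2* measured 3.56, 2.53, 3.72 and 2.91 in PBS-only legs (3.42, adjusted p = 0.0032), *Myl4* 6.67, 5.85, 7.24 and 9.10 (3.84, adjusted p = 0.00042) and *Ankrd1* 1.46, 0.966, 0.847 and 3.88 (3.84, adjusted p = 0.00047). All PBS-only legs lay below the HRS legs of m862 to m865 for these 3 genes. Of the fast-type class 6 of 11 genes fell, of the scaffold class 11 of 18, and of the slow-type class 3 of 10, namely *Myl2* (-2.40, adjusted p = 0.04), *Myl3* (-2.28, adjusted p = 0.036) and *Mybpc1* (-0.77, adjusted p = 0.018). *Ankrd2* did not pass here (-1.08, adjusted p = 0.076), and *Mybph* did (-0.88). When both legs of a PBS-only animal were averaged, 9 members fell, where 15% of all genes were called lower, and without both legs of m868, which held the shallowest libraries, 10 fell, where 18.6% were.

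Contralateral PBS legs and PBS-only legs were compared to ask whether the PBS leg of mice that received the immunogen differed from muscle of mice that did not. By limma, 0 of 45 members passed, where 0% of all genes were called higher and 0.00609% (1 gene) lower, and at an unadjusted p under 0.05 there were 0 members and 902 genes. The members' log2 differences ran from -0.31 (*Mybph*) to 0.80 (*Ankrd2*), with a median of 0.19 against 0.07 over all genes. All 10 slow-type genes had a positive difference, of 0.36 to 0.80, none of which passed. *Tnnt2* (0.35, interval -1.44 to 2.14), *Myl4* (0.51, interval -0.97 to 1.99) and *Ankrd1* (0.45, interval -1.05 to 1.96) had intervals wide enough to hold a change of over 2-fold.

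The 2 HRS-MBP libraries came from other mice and a fusion protein, and they were compared with PBS-only legs and with HRS legs. By their titles the dose was 2 to 3 mg/mL, against 3 to 5 mg/mL for HRS legs, so protein and dose cannot be told apart. Against PBS-only legs, 21 members fell and 3 rose, where 23.8% and 33.2% of all genes were called. Centred on myofibre genes, 2 were called lower and 19 higher, where 0.731% and 77.8% of all genes were. Markers of other cells moved too: the leukocyte sum was 3718 to 4096 in HRS-MBP libraries against 75.1 to 169 in PBS-only legs, the fibroblast sum 5341 to 12489 against 1049 to 2045, and the myofibre sum 19267 to 20319 against 49161 to 59593, with 13 of 15 myofibre markers lower. Their part in the result was not tested. The number that fell was 4 without m860 and 7 without m861, where 13% of all genes were called lower in each. These 2 fits leave 1 HRS-MBP library, which is assumed to vary like the libraries of the other groups. It was 12 without the left leg of m867 (20.4% of all genes) and 12 without both legs of m868 (21.8%). The number that rose was 1 without m860 (24.3% of all genes called higher), without the left leg of m867 (30.9%), without its right leg (32.6%) and without m868 (28.3%). *Tnnt2* measured 52.7 and 12.4 in m860 and m861 (2.84, limma adjusted p = 0.036), *Myl4* 117 and 14.6 (2.47, adjusted p = 0.029) and *Ankrd1* 50.3 and 20.3 (4.0, adjusted p = 0.0023). *Myl2* measured 1.77 and 32.2, *Myl3* 2.59 and 33.8, *Tcap* 605 and 776, *Mylk2* 187 and 285 and *Acta1* 15444 and 16445. The 2 mice were close for *Acta1* but far apart for *Myl2* and *Myl3*, where m860 lay below all other libraries, and m861 was the lower of the 2 for *Tnnt2*, *Myl4* and *Ankrd1*. Their *Tnni1*/*Tnnc1* log2 ratios were 0.92 and -0.10 and their *Myl2*/*Tnnc1* ratios -3.95 and 0.58, in the order m860 and m861. Both mice lay above the PBS range for *Tnni1*/*Tnnc1*, as did the HRS legs of m862 to m865, whereas for *Myl2*/*Tnnc1* m860 lay below the PBS range and m861 above it.

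Against HRS legs, 0 of 45 members passed by limma, where 0.426% of all genes were called higher and 0.134% lower, and at an unadjusted p under 0.05 there were 2 members (*Tnni1* and *Flnc*) and 2371 genes. The largest differences were -1.37 for *Myl4* (interval -3.22 to 0.48), -1.36 for *Tnni1* (interval -2.69 to -0.03) and -1.35 for *Myl3* (interval -3.70 to 1.0). With 2 libraries, intervals of this width do not show that the preparations act alike.

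Of 30 other sarcomere genes, a list that was also set with earlier results known, 29 were tested between HRS and contralateral legs, and 19 fell, 3 rose and 7 did not pass, where 25.9% of all genes were called lower and 35.1% higher. Their median was -0.68, against 0.08 over all genes. The largest fall was that of *Mylk4*, a myosin light chain kinase family member (-2.51, limma adjusted p = 0.0022), and the largest rise that of *Actn1*, the non-muscle alpha-actinin (1.57, adjusted p = 0.00039), with *Tmod3* (0.93) and *Actn4* (0.62) the other rises, all 3 being forms of non-muscle cells. Of 12 sarcomere chaperones and assembly factors, 8 fell and 1 rose, beside the same 25.9% and 35.1% of all genes, and their median was -0.52. The largest fall was that of *Fkbp5* (-1.37), but its contralateral legs were high (168, 54.1, 95.6, 98.5 and 101, against 40.8, 42.1, 29.9 and 32.3 in PBS-only legs), and against PBS-only mice its HRS legs had a log2 difference of 0.05 that did not pass (adjusted p = 0.92). In that comparison 5 of the 12 fell and 1 rose, where 22.6% of all genes were called lower and 38.1% higher. *Smyd1*, a methyltransferase, fell most (-1.08). Against contralateral legs *Smyd1* (-0.98) and the myosin chaperone *Unc45b* (-0.85) also fell, while the rise was that of *Hsp90aa1* (0.79, adjusted p = 8.2e-05), the HSP90 form used in myosin folding.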

How the data were processed

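Poly(A) RNA of hamstring muscle had been sequenced from stranded libraries on 3 Illumina platforms, with no platform given per library. The authors deposited normalized counts per gene, used here as a normalized signal and not as raw counts. The submitters' processing notes name STAR 2.7.8a, limma and the build mm39 (GRCm39), but 98.9% of 25652 matched symbols carried the start and end of GENCODE release 21 (GRCm38), so positions are given in GRCm38. Exact reads were not recovered, since only 74.2 to 76.2% of low values (up to 20 steps) were whole multiples of 1 step (tolerance 0.02 steps). The implied depths, the value given for 3 reads and the input of limma-voom took 1 step as 1 read and are estimates.

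Values were taken as log2(value + 0.5), and 16414 genes whose 16 libraries averaged 0.5 or more were fitted in 1 model of the 4 groups with limma 3.58.1 in R 4.3.3 (eBayes with trend). Benjamini-Hochberg adjustment covered all 16414 genes, and an adjusted p under 0.05 passed. Fold changes of low genes are understated by the added 0.5. Legs of one mouse share an animal, so a replicate block of the mouse was fitted as an alternative. The paired legs' deviations from the group means correlated at 0.12, 0.16, 0.097, -0.026 and -0.37 (m862 to m866). The 4 PBS-only legs came from 2 mice, so p-values against them rest in part on the spread between legs of 1 animal.

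All 45 members are accounted for, and values per library are given for both genes of each isoform pair and the largest rises and falls per class. Members and lists were chosen with earlier results of these data known. Alternatives were other added values, filters, scalings, limma-voom, blocks, averaged legs and omitted libraries. Sequences came from a set of RefSeq promoter windows (GRCm38.p6). No window of that set was matched to *Tcap*, *Actn3*, *Myom2*, *Lmod3*, *Tnnt3*, *Myoz3*, *Cryab*, *Neb*, *Mylk2*, *Myoz1*, *Myot* or *Tnni2*, which does not mean that RefSeq lacks these genes. Figures used Python 3.11.15 and matplotlib 3.10.9.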

Additional observations from a re-analysis of the deposited data

Results flagged for a closer look

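In each group of 4 or more libraries, the highest and the lowest value of every member were tested for their gap to the rest of the group with Dixon's ratio. Of 135 such groups 15 held a library past the 95% limit, and chance passes about 1 in 20. Members share libraries and vary together, so these groups are not independent tests and the 15 are not separate findings.

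The PBS leg of m866 was the lowest contralateral leg for 8 of the 15. It measured 28888 for *Acta1* (the other 4 legs 39601 to 42839), 12230.3 for *Tnnt3* (17065 to 19298) and 5565 for *Myl1* (7706 to 8509). It measured 2409.5 for *Neb* (3794 to 4116), 1116 for *Myom1* (1709 to 1959) and 1345 for *Myom2* (2056 to 2233). For *Ldb3* it was 1644 (2189 to 2413) and for *Des* 2854 (4012 to 4541). All 8 are abundant adult genes, and the HRS leg of the same mouse was higher in each.

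The right leg of m868, the shallowest library, was the lowest PBS-only leg for 5. It measured 831 for *Actc1* (the other 3 legs 2045 to 2409.6), 9972 for *Actn3* (12096 to 12293), 485 for *Mybph* (802 to 854), 8123 for *Ttn* (10682 to 11264) and 1471 for *Myom2* (1968 to 2062). The left leg of m867 was the highest for *Myoz1* at 1765 (1468 to 1514). Among HRS legs, *Ankrd1* in m866 was 2.52, against 45.8 to 55.5 in the other 4. The causes were not tested.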

How the results depend on the processing

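Between HRS and contralateral legs, *Tnnt2*, *Myl4* and *Ankrd1* stayed the 3 members called higher in every omission of 1 library (31.3 to 38.2% of all genes). The number lower ran from 21 to 34 (21.1 to 30.2% of all genes). Centring on myofibre genes gave 16 higher and 6 lower (81.5% and 1.26% of all genes). It adds 1.09 to every member's log2 change, so it turned 21 members from negative to positive. Of these, 15 were called on at least 1 of the scales: *Actn2* (0.74), *Cryab* (0.62), *Des* (0.58), *Flnc* (0.63), *Lmod3* (0.40), *Mybph* (0.52), *Myl1* (0.35), *Mylpf* (0.28), *Myom2* (0.18), *Myoz2* (0.062), *Myoz3* (0.12), *Neb* (0.092), *Tmod1* (0.086), *Tmod4* (0.28) and *Tpm2* (0.050). The other 6, called on neither, were *Acta1*, *Tpm1*, *Tpm3*, *Nebl*, *Lmod2* and *Csrp3*. Quantile normalization reversed *Myl1* (0.27) and *Mylpf* (0.13). The median of all genes was 0.08 as deposited, 0.45 at equal totals, -0.16 after quantile normalization and 1.16 after centring. With the mouse as a fixed replicate block 9 members were lower, and as a random block 1 member's call changed. In what follows, the share of all genes called the same way stands in parentheses. Against PBS-only mice, the number of HRS-leg members lower was 2 when centred (1.15%), with 20 higher (82.3%), and 13 with those 2 groups alone (18.9%). The number lower was 9 when both legs of a PBS-only animal were averaged (15%) and 10 without m868 (18.6%). Over omissions of 1 library it was 15 to 29 (18 to 27.4%). For HRS-MBP mice against PBS-only mice, the number lower was 13 with no filter (14.4%), 2 when centred (0.731%), 35 with those 2 groups alone (25.6%), 7 with averaged legs (19%), 12 without m868 (21.8%) and 4 to 29 over omissions. The number higher was 1 after quantile normalization (23.4%), 19 when centred (77.8%), 1 with averaged legs (29%), 1 without m868 (28.3%) and 1 to 3 over omissions. Between HRS-MBP and HRS legs, 0 to 1 member was lower over omissions, the 1 without the HRS leg of m864 (1.89%). The cause was not tested. Omitting m866 or m868 was chosen after seeing the data. Depth limits *Nebl* most, which at 0.485 in the right leg of m868 lay near the 0.364 that 3 reads give there.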
